A study of Mus musculus with 12 samples.

Results

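The comparison described here is that of mouse enteroids given butyrate together with IL-13 against enteroids given IL-13 without butyrate. It was made from 6 of the 12 libraries of the study, chosen by their labels: 3 of enteroids given 1 mM butyrate for 48 h and 20 ng/mL IL-13 for 72 h, and 3 of enteroids given 20 ng/mL IL-13 for 72 h. The other libraries, 3 of untreated enteroids and 3 of enteroids given 1 mM butyrate for 48 h, served as a second setting in which the response to butyrate was measured without IL-13. Enteroids are organoids of intestinal epithelium grown in culture without immune cells, stroma or bacteria. All were derived from the ileum of wild-type C57Bl/6 mice, so no group carried a genetic change. The labels do not say how many mice the cultures came from, or whether libraries of a group were separate cultures, so the p-values below measure only the spread between these libraries. They do not say which agent was added first.

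Bacteria of the gut ferment fibre to butyrate, a fatty acid with a short chain. It is a fuel for intestinal epithelial cells and an inhibitor of histone deacetylases, enzymes that remove acetyl groups from histones. IL-13 is a type 2 cytokine that signals through the receptor chains Il4ra and Il13ra1 to the transcription factor Stat6. In the small intestine it is known for the expansion of tuft cells, chemosensory cells that detect parasites and protists, and of goblet cells, which secrete mucus. The epithelium renews itself from stem cells at the crypt base. These give rise to absorptive enterocytes and to secretory cells, namely goblet, Paneth, tuft and enteroendocrine cells. The comparison addresses how butyrate changes gene expression in epithelium that is under IL-13.

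Polyadenylated RNA was sequenced with a directional protocol, and the deposited values were read counts per gene. The 6 libraries held between 13867982 and 15618074 counts. Each value below is in CPM, the count scaled to a library size of 1000000. For single genes the library size was the total of the tested genes multiplied by edgeR's TMM scaling factor. For summed levels of gene lists it was the plain total, so the 2 kinds of value are not on exactly the same scale. Of 18068 genes, 13750 had enough counts to be tested. No gene of the table lacked counts in the untreated and IL-13 libraries combined, so any gene detected only with butyrate is not covered. Epithelial markers were abundant: Epcam, a surface protein of all gut epithelial cells, was at 1769, 1747 and 1705 CPM with IL-13 and at 2063, 2141 and 2107 CPM with both agents. Lists of markers of other cells gave lower sums. The summed level of the mesenchymal list (10 of 12 genes with a row in the table) ranged from 2.81 to 3.86 CPM with IL-13 and from 2.37 to 3.97 CPM with both agents, and Lum had 0 counts in all 6 libraries. For the endothelial list (9 of 10 genes) the ranges were 5.69 to 9.66 and 6.21 to 9.23 CPM. The immune list (8 of 14 genes) summed to 56.2 to 63 CPM with IL-13 and 48.7 to 52.1 CPM with both agents, most of it from Cd14, which binds lipopolysaccharide, at 30.6, 29.7 and 28.4 and 22.2, 24.8 and 21.4 CPM, and Csf1r, a receptor of macrophages, at 17.7, 17.3 and 16.3 and 17.8, 19.7 and 18.4 CPM. The T-cell gene Cd3e had 0 counts with IL-13 and 2 with both agents. The glial list (5 of 6 genes) summed to 145 to 171 and 163 to 198 CPM, nearly all of it from Erbb3, a receptor that the EGF family list also holds, while Gfap had 0 counts with IL-13 and 1 with both agents. The part of other cells in the results was not tested.

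Along the first principal component of the 6 libraries, which held 55.6% of the variance, the IL-13 libraries lay between -33 and -32.3 and those with butyrate at 23.2, 29.6 and 44.9 for replicates 1 to 3. Butyrate + IL-13 replicate 3 lay farthest out. It also stood apart in Lars2, a mitochondrial leucyl-tRNA synthetase, at 1064, 1094 and 6983 CPM in the butyrate + IL-13 libraries against 849, 980.0 and 966 CPM with IL-13. Among the other libraries butyrate replicate 2 was also high in Lars2, at 5048 CPM, and these are the 2 Lars2-high libraries named below. Their part in the results was not tested beyond leaving them out. For most lists, counts of called genes are also given without a library that moved them by more than 1.5 times.

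Adding butyrate to IL-13 changed 2912 of the 13750 genes tested (21.2%) at an adjusted p under 0.05 (edgeR's quasi-likelihood test, Benjamini-Hochberg adjustment over all genes tested). Of these, 1355 were higher (9.85%) and 1557 were lower (11.3%) with butyrate. The falls were the larger changes: 583 genes fell and 166 rose by at least 2-fold, and 230 fell and 22 rose by at least 4-fold. The median log2 fold change was -0.75 among the called genes that fell and 0.42 among those that rose. Genes that fell by at least 4-fold were mostly weakly expressed, with a median of 2.16 CPM in the IL-13 libraries against 27.14 CPM over all genes tested. Without butyrate + IL-13 replicate 3, 1935 genes were called, 977 higher and 958 lower, of which 1834 were also called with it in the same direction. Without IL-13 replicate 3, 894 genes were called higher and 1115 lower. The groups did not overlap in CPM for 5079 of the tested genes (36.9%), which is the background for any statement below that groups were apart.

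**Figure D1:**
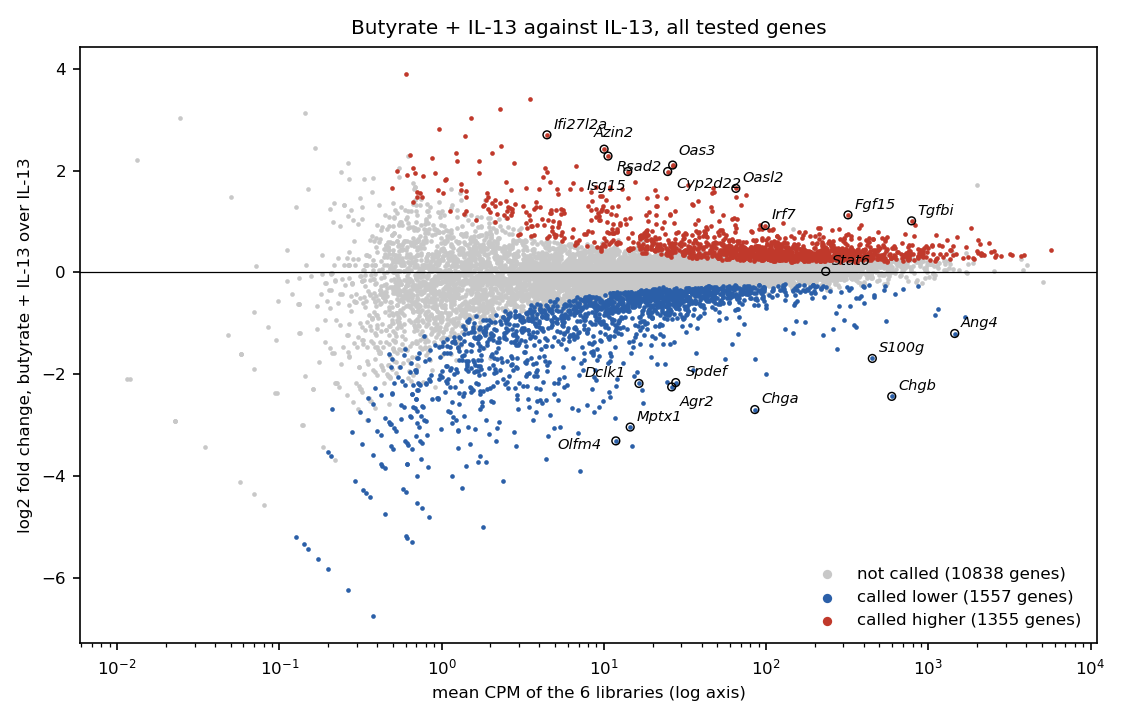
Log2 fold change of butyrate + IL-13 over IL-13 (vertical axis) against the mean CPM of the 6 libraries (horizontal log axis) for the 13750 genes tested, with 1355 called higher in red, 1557 called lower in blue and the rest in grey; circled genes are named. The largest falls lie at low and middle levels (Mptx1, Olfm4), while Chgb and S100g are strongly expressed genes that fell, and the interferon-stimulated genes Isg15, Oas3 and Rsad2 lie at the top.

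Enteroendocrine cells, the hormone-secreting cells of the gut, gave the most uniform result. All 28 tested genes of their list were called lower with butyrate, 26 of them by at least 2-fold, with a median log2 fold change of -2.22 against -0.012 over all genes tested. The other 2 of the 30 listed genes had too few counts to be tested. In bulk libraries fewer cells of a type and less RNA of its genes per cell cannot be told apart, here or in the cell type lists that follow. Chga (chr12:102554969-102565027), which encodes the granule protein chromogranin A, was at 159.6, 146 and 138 CPM in the IL-13 libraries and at 28.3, 21.5 and 18.7 CPM in the butyrate + IL-13 libraries. Every butyrate library lay far below every IL-13 library, a log2 fold change of -2.69 ± 0.16 (SE; adjusted p = 1e-08). Chgb, the related granin, was at 1021, 1038 and 956 CPM with IL-13 and 246, 179 and 133 CPM with both agents, a log2 fold change of -2.44 ± 0.17 (SE; adjusted p = 7.2e-08). Tph1, the enzyme that commits tryptophan to serotonin in enterochromaffin cells, fell from 31.4, 30.1 and 27.6 CPM to 7.83, 3.66 and 3.66 CPM, a log2 fold change of -2.56 ± 0.23 (SE; adjusted p = 9.3e-07). These are abundant products of mature enteroendocrine cells, and the factor that starts their lineage moved the same way. Neurog3, the transcription factor of enteroendocrine progenitors, was at 2.81, 2.81 and 4.36 CPM with IL-13 and 0.237, 0.717 and 0.366 CPM with both agents, a log2 fold change of -2.91 ± 0.37 (SE; adjusted p = 2.8e-05). For Pcsk1, a protease that matures prohormones, the values were 15.3, 14.5 and 13.9 CPM and 4.35, 2.31 and 3.44 CPM, a log2 fold change of -2.11 ± 0.20 (SE; adjusted p = 1.6e-06). Cplx2, a complexin that clamps vesicle fusion, was at 19, 15 and 16.1 CPM with IL-13 and 3, 3.42 and 2.34 CPM with both agents, a log2 fold change of -2.52 ± 0.20 (SE; adjusted p = 1.9e-07). Without butyrate + IL-13 replicate 3, 27 of the 28 genes were still called lower. In enteroids without IL-13, 25 of the 28 were also called lower with butyrate, beside 379 of all 13750 genes. Their median log2 fold change there was -1.29.

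Genes of neuronal secretion and cytoskeleton, which enteroendocrine cells share with neurons, fell with them. Of 25 listed, 14 could be tested and 9 were called lower, none higher, and their median log2 fold change was -1.81. Celf3, a neuronal RNA-binding protein, was at 5.19, 5.42 and 5.92 CPM with IL-13 and 1.74, 1.43 and 1.02 CPM with both agents, a log2 fold change of -1.98 ± 0.31 (SE; adjusted p = 0.00021). The neurofilament gene Nefm went from 5.62, 8.03 and 5.92 CPM to 3.32, 1.03 and 1.90 CPM, a log2 fold change of -1.64 ± 0.32 (SE; adjusted p = 0.0012). Snap25, a SNARE protein of vesicle fusion, was at 3.39, 4.05 and 3.33 CPM and 1.58, 0.717 and 0.146 CPM, a log2 fold change of -2.15 ± 0.43 (SE; adjusted p = 0.0016), and without butyrate + IL-13 replicate 1 its log2 fold change was -3.05. In each of these genes all 3 butyrate libraries lay below all 3 IL-13 libraries. With a mean of at least 50 counts, 4 genes of the list were called lower.

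Tuft cell genes fell nearly as far. Of 36 listed genes, 32 could be tested, of which 23 were called lower and 1 higher, and the median log2 fold change was -1.96. Most are weakly expressed in whole enteroids: 11 had a mean of at least 50 counts over the 12 libraries, and 7 of these 11 were called lower. Dclk1 (chr3:55242526-55539064), a kinase used as the marker of tuft cells, was at 26.5, 30.3 and 24.2 CPM with IL-13 and 6.01, 6.13 and 5.71 CPM with both agents, a log2 fold change of -2.18 ± 0.28 (SE; adjusted p = 2.7e-05). In untreated enteroids it was at 6.81, 6.72 and 8.70 CPM, so the libraries with both agents lay a little below the untreated ones. Pou2f3, the transcription factor without which tuft cells do not form, was at 5.70, 7.14 and 7.08 CPM with IL-13 and 1.42, 1.11 and 0.439 CPM with both agents, a log2 fold change of -2.75 ± 0.39 (SE; adjusted p = 8.6e-05). Trpm5, the cation channel that ends the taste transduction cascade, was at 14.1, 15.2 and 12.5 CPM and 4.82, 4.14 and 2.19 CPM, a log2 fold change of -1.91 ± 0.26 (SE; adjusted p = 6.8e-05). Spib, an ETS transcription factor found in tuft cells, changed by -2.86 ± 0.25 (adjusted p = 5.9e-07) on the log2 scale. For Il17rb, the receptor for IL-25, the values were low and the fall was not called: 2.45, 1.99 and 2.86 CPM with IL-13 and 1.34, 0.557 and 1.98 CPM with both agents, a log2 fold change of -0.90 ± 0.37 (SE; adjusted p = 0.098). Its fall was called without butyrate + IL-13 replicate 3 (adjusted p = 0.042) and without both Lars2-high libraries (adjusted p = 0.035). The 1 list member called higher, Krt18, is a keratin of all simple epithelia and was at 1055, 977 and 1021 CPM with IL-13 and 1252, 1177 and 1136 CPM with both agents. Its call was lost under several alternatives, among them leaving out IL-13 replicate 2 (adjusted p = 0.16).

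The enzymes by which tuft cells make leukotrienes and prostaglandins gave a mixed picture. Of 15 tested genes, 5 were called lower and none higher. With a mean of at least 50 counts 2 were called lower. Under 7 of 20 alternatives 1 was called higher, among them RLE scaling, DESeq2, leaving out butyrate replicate 2, butyrate replicate 3 or butyrate + IL-13 replicate 1, and leaving out both Lars2-high libraries. Pla2g4a, the phospholipase that frees arachidonic acid, was at 11.1, 11.8 and 11 CPM with IL-13 and 3.16, 2.55 and 2.63 CPM with both agents, a log2 fold change of -2.02 ± 0.18 (SE; adjusted p = 7.5e-07). Alox5, the 5-lipoxygenase of leukotriene synthesis, was at 4.61, 5.70 and 5.72 CPM and 1.42, 1.75 and 0.878 CPM, a log2 fold change of -1.99 ± 0.32 (SE; adjusted p = 0.00024). Hpgds, a prostaglandin D synthase, changed by -2.26 ± 0.38 (adjusted p = 0.00043) on the log2 scale. Alox5 and Hpgds are also members of the tuft cell list, so their falls are not separate from that result. The more abundant phospholipase gene Pla2g4c did not follow: it was at 1883, 1256 and 1444 CPM with IL-13 and 1930, 1598 and 1212 CPM with both agents, and the groups overlapped (a log2 fold change of 0.05 ± 0.21 (SE; adjusted p = 0.9)).

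Goblet cells showed the same direction. Of 28 tested genes, 21 were called lower, 2 higher and 5 neither, with a median log2 fold change of -1.11. The transcription factors at the head of the lineage were among those that fell. Atoh1 (chr6:64729146-64731233), which commits progenitors to all secretory fates, was at 42.2, 33.7 and 35 CPM with IL-13 and 11.5, 9 and 11.2 CPM with both agents, a log2 fold change of -1.81 ± 0.14 (SE; adjusted p = 1.9e-07). Spdef, which drives goblet maturation, was at 48.8, 42.2 and 45.1 CPM and 12, 10.5 and 7.90 CPM, a log2 fold change of -2.16 ± 0.18 (SE; adjusted p = 3e-07). Agr2 (chr12:35992907-36004087), a disulfide isomerase that folds mucin in the endoplasmic reticulum, was at 38.3, 44.1 and 47.4 CPM with IL-13 and 12, 9.24 and 6.14 CPM with both agents, a log2 fold change of -2.25 ± 0.19 (SE; adjusted p = 3e-07). For this gene untreated enteroids lay higher than either, at 137, 170.0 and 195 CPM. Rep15, an effector of a Rab GTPase, was at 20.9, 19.5 and 14.8 CPM with IL-13 and 4.11, 3.27 and 2.78 CPM with both agents, a log2 fold change of -2.44 ± 0.21 (SE; adjusted p = 4.1e-07). Muc2, the gel-forming mucin itself, was at 46.4, 49 and 38.8 CPM and 21.8, 21.2 and 16.3 CPM, a log2 fold change of -1.18 ± 0.22 (SE; adjusted p = 0.00092). The 2 called higher were Fut2 and Gcnt3, glycosyltransferases that are not restricted to goblet cells. Fut2 went from 67, 55.5 and 67 CPM to 124, 118 and 119 CPM, a log2 fold change of 0.93 ± 0.15 (SE; adjusted p = 0.00028).

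Genes of mucin glycosylation split. Of 26 tested, 4 were called higher and 9 lower, and 5 were lower without butyrate + IL-13 replicate 3. A4gnt, which caps gland mucins with N-acetylglucosamine, fell farthest of the list, from 7.93, 8.10 and 8.58 CPM to 0.474, 1.03 and 0.439 CPM, a log2 fold change of -3.66 ± 0.35 (SE; adjusted p = 1.9e-06). Chst4, a sulfotransferase, changed by -0.99 ± 0.15 (adjusted p = 0.00012) and Galnt12, which starts O-glycans, by -1.21 ± 0.16 (adjusted p = 5.9e-05) on the log2 scale. B3gnt7, which extends glycan chains, rose from 172, 125 and 147 CPM to 252, 273 and 286 CPM, a log2 fold change of 0.87 ± 0.11 (SE; adjusted p = 2.2e-05).

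Paneth cells, the antimicrobial secretory cells of the crypt base, did not move as 1 block. Of 16 tested genes, 8 were called lower and 2 higher. The number higher was 1 without IL-13 replicate 2, and the number lower was 5 without butyrate + IL-13 replicate 3, IL-13 replicate 1 or both Lars2-high libraries. Mptx1, a mucosal pentraxin, was at 30.6, 24.1 and 23.1 CPM with IL-13 and 3.72, 3.42 and 2.34 CPM with both agents, a log2 fold change of -3.04 ± 0.26 (SE; adjusted p = 4.1e-07). Wnt3, the Wnt ligand that Paneth cells supply to stem cells, was at 5.77, 5.29 and 4.56 CPM and 1.03, 1.35 and 0.951 CPM, a log2 fold change of -2.22 ± 0.24 (SE; adjusted p = 6.5e-06). Itln1, an intelectin that binds microbial glycans, was at 606, 438 and 413 CPM with IL-13 and 283, 246 and 160.0 CPM with both agents, a log2 fold change of -1.08 ± 0.18 (SE; adjusted p = 0.00037). Lyz1, Paneth cell lysozyme, went the other way. Its values were 229, 186 and 289 CPM with IL-13 and 441, 376 and 271 CPM with both agents, so that the groups overlapped (a log2 fold change of 0.63 ± 0.16 (SE; adjusted p = 0.0089)). That call was lost with only the compared groups in the fit (adjusted p = 0.11), with no filter on low counts (adjusted p = 0.053) and without IL-13 replicate 2 (adjusted p = 0.058). Reads of Lyz1 and its near copy Lyz2 may be split by the counting. Lyz2 had 0.288, 0.206 and 0.204 CPM with IL-13.

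**Figure D2:**
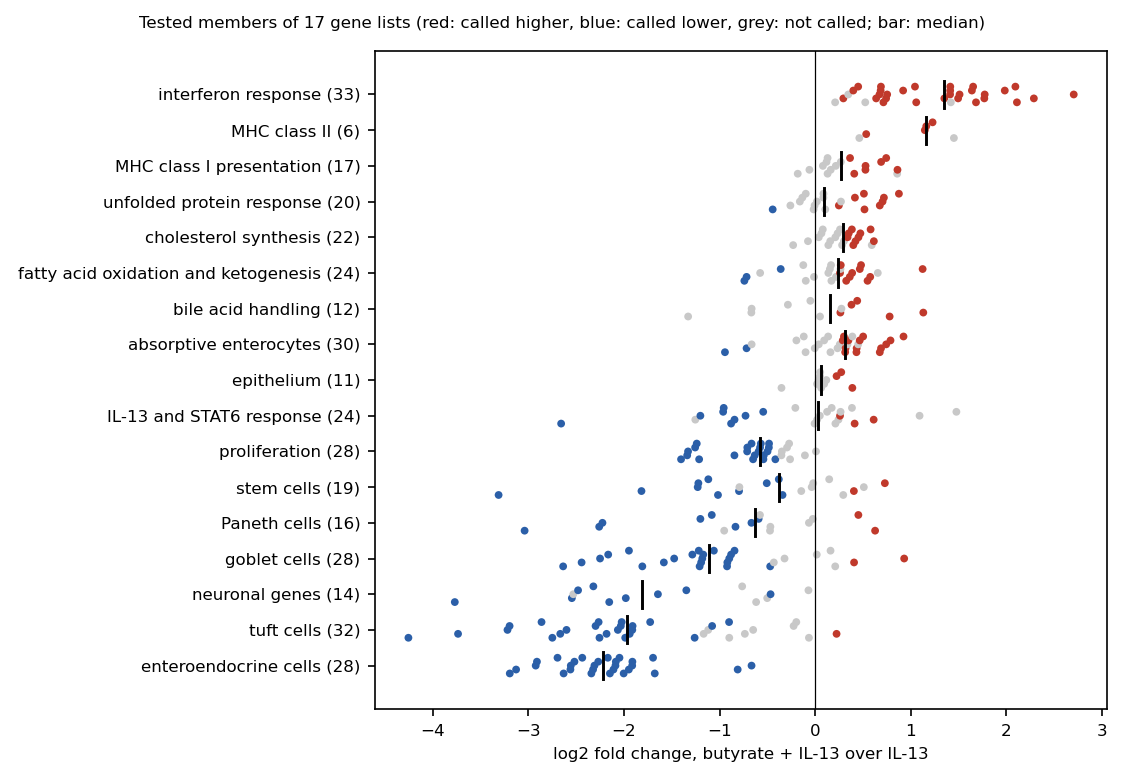
Log2 fold change of butyrate + IL-13 over IL-13 (horizontal axis) for the tested members of 17 gene lists, 1 point per gene, with the number tested in parentheses and a black bar at the median. All 28 enteroendocrine genes lie left of 0, tuft and goblet genes mostly do, and all 33 interferon response genes lie right of 0; lists share some genes.

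Stem cell and cell division genes fell as well. Of 19 tested stem cell genes, 10 were called lower and 2 higher, and 1 was higher when any of the 6 libraries of the comparison was left out. Olfm4, a secreted marker of crypt base stem cells, was at 24.1, 19.5 and 21 CPM with IL-13 and 2.53, 2.23 and 1.75 CPM with both agents, a log2 fold change of -3.31 ± 0.23 (SE; adjusted p = 7.2e-08). Axin2, a direct target of Wnt signalling, was at 26.7, 24.2 and 25.2 CPM and 12.7, 13.3 and 9.14 CPM, a log2 fold change of -1.12 ± 0.12 (SE; adjusted p = 8.1e-06). Slc12a2, a chloride importer enriched in crypts, went from 305, 304 and 336 CPM to 148, 151 and 104 CPM, a log2 fold change of -1.23 ± 0.14 (SE; adjusted p = 7.9e-06). Lgr5, the receptor that defines the active stem cell, did not pass the test: it was at 1.88, 0.755 and 2.65 CPM with IL-13 and 2.37, 4.14 and 1.10 CPM with both agents, and the groups overlapped (a log2 fold change of 0.51 ± 0.44 (SE; adjusted p = 0.45)).

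Among 28 tested genes of DNA replication and mitosis, 21 were called lower and none higher, with a median log2 fold change of -0.57. Leaving out replicate 3 of either group gave 13. Mcm2, a subunit of the replicative helicase, was at 29.2, 33.7 and 38.5 CPM with IL-13 and 13.8, 14.9 and 9.80 CPM with both agents, a log2 fold change of -1.40 ± 0.13 (SE; adjusted p = 1.5e-06). Its partners Mcm3, Mcm5 and Mcm6 changed by -1.34, -1.33 and -1.25 on the log2 scale. Mki67, the marker of cycling cells, was at 88.6, 148 and 130.1 CPM with IL-13 and 73.2, 81.9 and 81.7 CPM with both agents, a log2 fold change of -0.63 ± 0.14 (SE; adjusted p = 0.0032). Cdkn1a, which encodes the cell cycle inhibitor p21, was higher with butyrate, at 1968, 2038 and 1978 CPM against 1505, 1384 and 1323 CPM, a log2 fold change of 0.51 ± 0.07 (SE; adjusted p = 0.00012). Cdkn2b, the inhibitor p15, also rose, by 0.45 ± 0.10 (adjusted p = 0.0034) on the log2 scale. Of the 13 tested cell cycle inhibitors, D cyclins and their partners 3 were called higher and 2 lower. The inhibitor gene Cdkn2c was 1 of the 2 lower, at -0.38 ± 0.12 (adjusted p = 0.029) on the log2 scale. The number lower was 0 without replicate 3 of either group, IL-13 replicate 2 or butyrate + IL-13 replicate 1, and 1 without untreated replicate 3, butyrate replicate 1, IL-13 replicate 1, butyrate + IL-13 replicate 2 or both Lars2-high libraries.

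Wnt and Notch genes overlapped in part with the lists above. In the Wnt list 10 of 23 tested genes were called lower and 2 higher. Without IL-13 replicate 1 the number called higher was 1, and with DESeq2 it was 4. Rnf43, a ubiquitin ligase that dampens Wnt receptors, changed by -0.51 ± 0.09 (adjusted p = 0.00097) and Notum, a secreted Wnt antagonist, by 1.18 ± 0.15 (adjusted p = 2.5e-05) on the log2 scale. Notum rose from 12.3, 12.8 and 9.80 CPM to 25.8, 29 and 24.6 CPM. In the Notch list 5 of 16 genes were called lower, of which Atoh1 and Olfm4 are given above, and 1 was called higher, though not without IL-13 replicate 3. Jag1, a Notch ligand, changed by -0.54 ± 0.11 (adjusted p = 0.0021) and Dtx4, a Deltex ubiquitin ligase, by -0.71 ± 0.11 (adjusted p = 0.00014) on the log2 scale.

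The list of IL-13 and STAT6 response genes was split. Of 24 tested genes, 8 were called lower, 3 higher and 13 neither, with a median log2 fold change of 0.04. The number lower was 5 without IL-13 replicate 1. The number higher reached 6 with DESeq2 and without butyrate replicate 2, and was 5 without butyrate replicate 3. The receptor chains and Stat6 were among those not called. Stat6 was at 239, 223 and 232 CPM with IL-13 and 234, 238 and 234 CPM with both agents, a log2 fold change of 0.02 ± 0.07 (SE; adjusted p = 0.86). Il4ra and Il13ra1, the receptor chains, had log2 fold changes of 0.17 ± 0.09 (adjusted p = 0.19) and 0.12 ± 0.11 (adjusted p = 0.47). An absent call does not show that these levels were equal.

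Several genes known as IL-13 targets in this tissue were lower when butyrate was present. Clca1, a secreted goblet protein that processes mucus, was at 379, 499 and 508 CPM in untreated enteroids, 1504, 1421 and 1327 CPM with IL-13 and 866, 735 and 770.4 CPM with both agents, a log2 fold change of -0.84 ± 0.11 (SE; adjusted p = 6e-05). Ang4, a microbicidal angiogenin, was at 449.8, 559.8 and 624 CPM in untreated enteroids, 2385, 2006 and 1692 CPM with IL-13 and 1045, 878 and 725 CPM with both agents, a log2 fold change of -1.20 ± 0.15 (SE; adjusted p = 3e-05). In both genes the libraries with both agents lay below those with IL-13. Clca1 is also a member of the goblet cell list and Ang4 of the Paneth cell list, so their falls are not separate from those results. Gsdmc2 (chr15:63824346-63835949), a member of the pore-forming gasdermin C cluster, was at 1.01, 0.689 and 0.776 CPM untreated, 848, 638 and 696 CPM with IL-13 and 425, 361 and 338 CPM with both agents, a log2 fold change of -0.96 ± 0.15 (SE; adjusted p = 0.00017). Its neighbour Gsdmc4 was at 1705, 1288 and 1302 CPM with IL-13 and 971, 879 and 743 CPM with both agents, a log2 fold change of -0.73 ± 0.19 (SE; adjusted p = 0.012). The Gsdmc4 call was lost with DESeq2 (adjusted p = 0.26), with no filter on low counts (adjusted p = 0.11), without butyrate + IL-13 replicate 3 (adjusted p = 0.068) and in 3 other settings. The gasdermin C genes are near copies of each other, so the counting may have split their reads.

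Chil4, a chitinase-like protein, was at 19.8, 4.74 and 8.30 CPM with IL-13 and 1.58, 1.91 and 1.68 CPM with both agents, a log2 fold change of -2.66 ± 0.45 (SE; adjusted p = 0.001). IL-13 replicate 1 was the highest library, and without it the log2 fold change was -1.91. Fcgbp, a mucus protein that crosslinks Muc2, was at 2166, 2617 and 1748 CPM and 1108, 1282 and 1161 CPM, a log2 fold change of -0.88 ± 0.14 (SE; adjusted p = 0.00029). Fcgbp is also in the goblet cell list. Duox2 did not fall. This gene (chr2:122279247-122298165), which encodes a hydrogen peroxide-producing oxidase of the apical membrane, was at 748, 777 and 806 CPM with IL-13 and 958, 1070 and 1073 CPM with both agents, a log2 fold change of 0.41 ± 0.09 (SE; adjusted p = 0.0033).

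**Figure D3:**
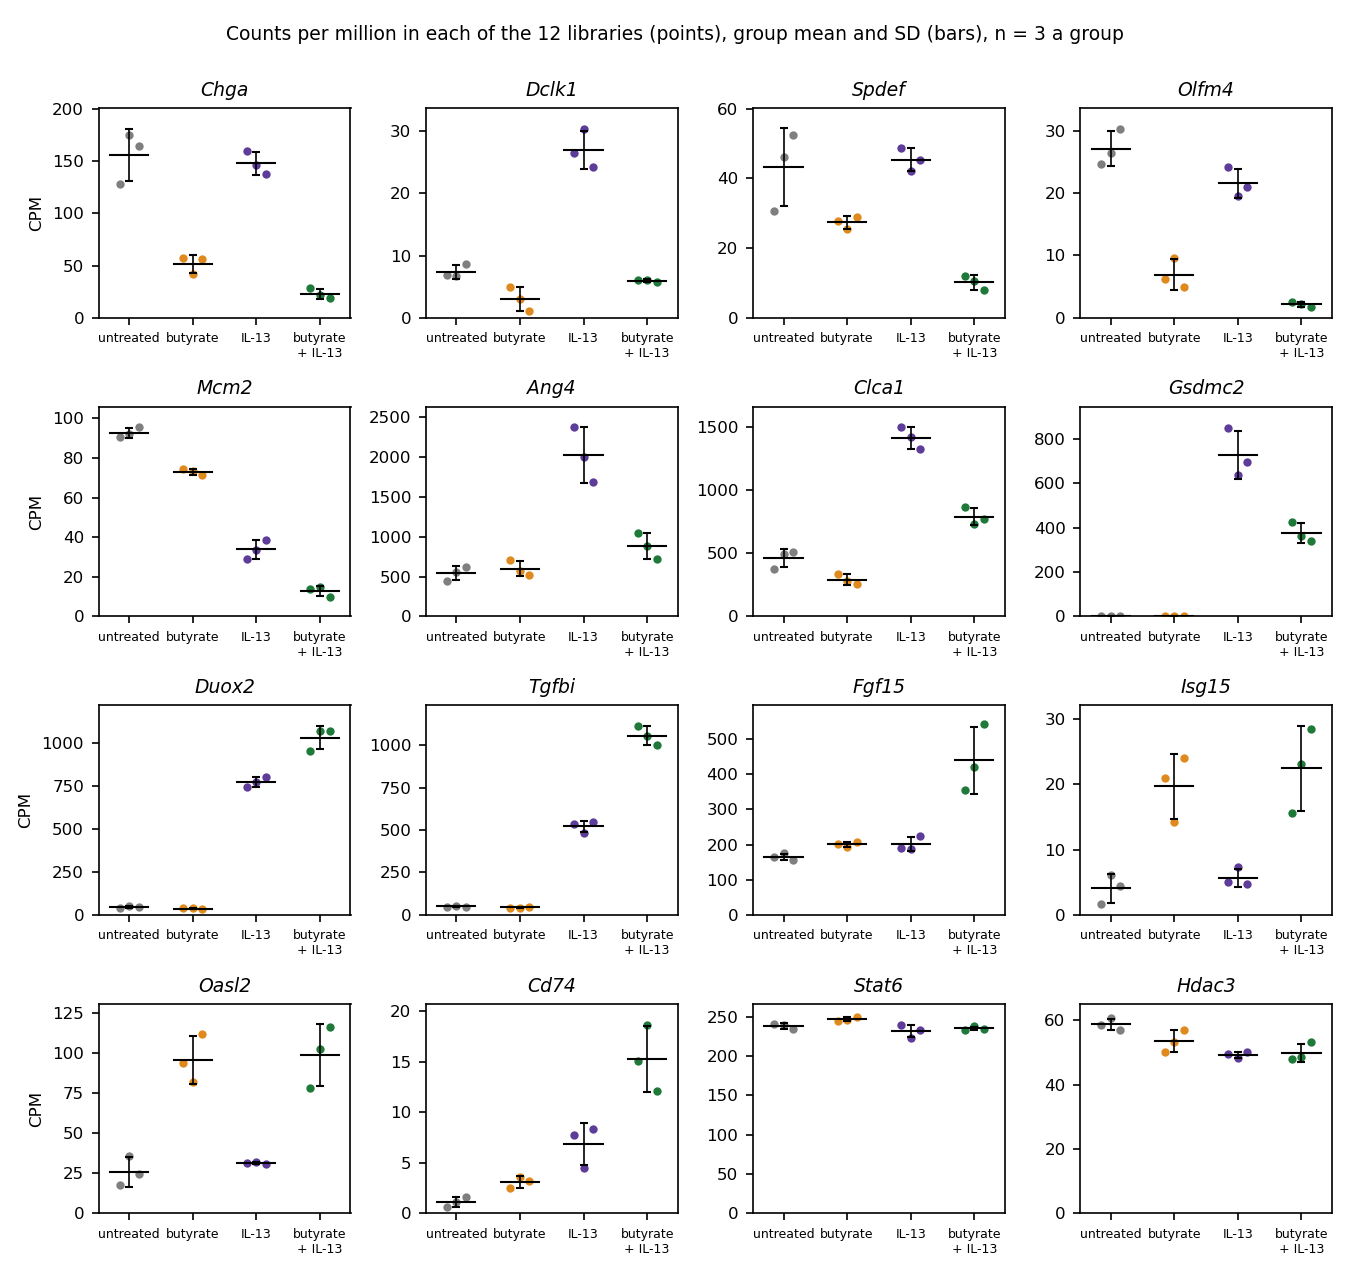
CPM of 16 genes (vertical axes, each from 0) in the 12 libraries, grouped as untreated, butyrate, IL-13 and butyrate + IL-13, with group mean and SD (n = 3). Chga and Spdef are lower in the butyrate + IL-13 libraries than in any other group, Ang4 lies between its untreated and IL-13 levels, Isg15 and Oasl2 are higher with butyrate in both settings, and the IL-13 and butyrate + IL-13 libraries lie close together for Stat6 and Hdac3.

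Interferon-stimulated genes, which encode antiviral proteins and are switched on through factors that include Stat2 and Irf9, rose together. Of 33 tested genes, 29 were called higher and none lower, and the median of the log2 fold changes was 1.35. The 4 not called were Mx1, Mx2, Bst2 and Ifi35, named here after their values were seen. Without butyrate + IL-13 replicate 3, 28 were called higher. To show a motif known to bind the factors that drive such genes, a stretch of promoter is printed for 5 called members, 5′ to 3′ on the gene's strand, from the RefSeq windows of build GRCm38.p6. Capitals mark every match to GAAANNGAA, the core of the interferon-stimulated response element, on either strand; matches may overlap. None of these stretches overlapped an annotated exon.
Isg15 (chr4:156200873-156200932, - strand, -114 to -55 from the start site): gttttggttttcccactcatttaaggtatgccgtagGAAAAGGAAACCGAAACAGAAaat
Oas3 (chr5:120777711-120777770, - strand, -111 to -52): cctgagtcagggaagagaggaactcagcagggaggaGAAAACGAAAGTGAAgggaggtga
Ifit1 (chr19:34640744-34640803, + strand, -145 to -86): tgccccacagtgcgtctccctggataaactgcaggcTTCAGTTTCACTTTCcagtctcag
Rsad2 (chr12:26456548-26456607, - strand, -155 to -96): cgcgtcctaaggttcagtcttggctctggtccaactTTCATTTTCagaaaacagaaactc
Stat2 (chr10:128270248-128270307, + strand, -250 to -191): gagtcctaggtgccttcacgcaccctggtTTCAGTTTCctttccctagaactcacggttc

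RefSeq windows of 300 bases, from 250 before to 50 after a start site, were held for 22 of the 33 interferon response genes, and 13 of these 22 had a match to GAAANNGAA in at least 1 window. By window, 51.9% of the 27 windows of this list held a match, against 6.9% of the 13230 windows of all tested genes. Among the genes called higher 9.1% of windows held it, among those called lower 6.4%, and among those not called 6.7%. For the octamer ATGCAAAT, the core of sites bound by POU factors, the shares were 1.4% of windows for genes called higher, 1.4% for those called lower and 1.4% for all tested genes. Of the 32 windows of the tuft cell genes, 2 held the octamer. These are counts of letters in a window, not of bound sites.

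Isg15, a ubiquitin-like modifier, was at 4.97, 7.28 and 4.76 CPM with IL-13 and 15.7, 23.1 and 28.5 CPM with both agents, a log2 fold change of 1.98 ± 0.32 (SE; adjusted p = 0.0003). Oas3, an oligoadenylate synthetase that senses double-stranded RNA, was at 10.2, 8.65 and 11.1 CPM and 29, 44.8 and 55.5 CPM, a log2 fold change of 2.11 ± 0.26 (SE; adjusted p = 2.7e-05). Rsad2, the antiviral protein viperin, went from 3.03, 3.91 and 3.88 CPM to 12.7, 14.7 and 25.4 CPM, a log2 fold change of 2.29 ± 0.45 (SE; adjusted p = 0.0016). In each of these genes all 3 butyrate libraries lay above all 3 IL-13 libraries, and butyrate + IL-13 replicate 3 was the highest. All 3 genes are among the largest rises, which were picked only from genes with groups apart, so the separation adds no support. Oasl2, an OAS-like protein, was at 31.6, 31.9 and 30.9 CPM with IL-13 and 78, 102 and 116 CPM with both agents, a log2 fold change of 1.65 ± 0.19 (SE; adjusted p = 1.5e-05). Ifi27l2a, an interferon-inducible membrane protein, had the largest rise of this list's genes named here, from 1.23, 0.893 and 1.43 CPM to 6.01, 8.20 and 9 CPM, a log2 fold change of 2.70 ± 0.30 (SE; adjusted p = 7.9e-06). Irf7 and Stat2, transcription factors of the pathway, rose by less than the interferon response list's median log2 fold change of 1.35. Irf7 was at 63.5, 71.8 and 69.8 CPM with IL-13 and 101, 146 and 142 CPM with both agents, a log2 fold change of 0.92 ± 0.16 (SE; adjusted p = 0.00053). For Stat2 the values were 45.5, 40.5 and 34.6 CPM and 67.8, 81.1 and 99.5 CPM, a log2 fold change of 1.04 ± 0.15 (SE; adjusted p = 9.4e-05). Upstream, 8 of 18 tested receptor and sensor genes were called higher and none lower, among them Ifngr1 at 0.50 ± 0.07 (adjusted p = 0.00014) and Ifnar1 at 0.38 ± 0.08 (adjusted p = 0.0028) on the log2 scale. That number was 4 without butyrate + IL-13 replicate 3, 4 without both Lars2-high libraries, and 3, 4 and 2 without replicates 1, 2 and 3 of the IL-13 group.

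Antigen presentation genes were called in the same direction. In the class I pathway 7 of 17 tested genes were called higher and none lower. Leaving out butyrate + IL-13 replicate 2 or 3, or replicate 3 of the IL-13 group, gave 4. B2m, the light chain of class I molecules, was at 440.5, 419.9 and 421 CPM with IL-13 and 719, 629 and 719 CPM with both agents, a log2 fold change of 0.69 ± 0.08 (SE; adjusted p = 1.1e-05). Tap1, a subunit of the peptide transporter, was at 28.3, 31.6 and 32.2 CPM and 49, 60.5 and 57.8 CPM, a log2 fold change of 0.86 ± 0.12 (SE; adjusted p = 7e-05). In the class II pathway 4 of 6 tested genes were called higher. Cd74, the invariant chain, was at 7.71, 4.53 and 8.37 CPM with IL-13 and 15, 18.6 and 12.1 CPM with both agents, a log2 fold change of 1.15 ± 0.25 (SE; adjusted p = 0.0032). H2-Ab1, a class II beta chain, was at 3.82, 3.64 and 2.59 CPM and 6.80, 7.41 and 9.29 CPM, a log2 fold change of 1.23 ± 0.26 (SE; adjusted p = 0.0023). Class II genes also mark immune cells. In the immune list 1 of 5 tested genes, Cd14, was called, lower, a share near the 21.2% called over all genes. The Cd14 call was lost in turn without each library of the comparison but butyrate + IL-13 replicate 2.

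Absorptive enterocyte genes changed by smaller steps. Of 30 tested, 14 were called higher, 2 lower and 14 neither, with a median log2 fold change of 0.31. The number higher was 7 without butyrate + IL-13 replicate 3, 9 without both Lars2-high libraries and 4 without IL-13 replicate 3, and the number lower was 5 without both Lars2-high libraries. Slc2a2, the basolateral glucose transporter, was at 418, 434 and 406 CPM with IL-13 and 564, 549 and 585 CPM with both agents, a log2 fold change of 0.43 ± 0.07 (SE; adjusted p = 0.00032). Apoa4, an apolipoprotein of chylomicrons, was at 566, 588 and 566 CPM and 798, 959 and 1507 CPM, a log2 fold change of 0.92 ± 0.17 (SE; adjusted p = 0.00088). Fabp2, the intestinal fatty acid-binding protein, was 1 of the 2 that fell, from 10.5, 11.2 and 13.5 CPM to 6.09, 4.70 and 7.46 CPM, a log2 fold change of -0.94 ± 0.15 (SE; adjusted p = 0.0003). Alpi, the brush border alkaline phosphatase, was at 464, 474 and 454 CPM with IL-13 and 373, 351 and 559 CPM with both agents, and the groups overlapped (a log2 fold change of -0.12 ± 0.16 (SE; adjusted p = 0.66)). S100g (chrX:162961992-162964599), a calcium-binding protein of absorptive cells outside these lists, was among the firmest falls of all genes, from 659, 749 and 661 CPM to 202, 220.1 and 219.6 CPM, a log2 fold change of -1.69 ± 0.10 (SE; adjusted p = 1e-08).

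In bile acid handling, 5 of 12 tested genes were called higher and none lower; 3 were called higher without IL-13 replicate 3. Fgf15, the ileal hormone that reports bile acid uptake to the liver, was at 189.7, 189 and 224 CPM with IL-13 and 355, 420.3 and 542 CPM with both agents, a log2 fold change of 1.13 ± 0.12 (SE; adjusted p = 4.1e-06). Slc51b, a subunit of the basolateral bile acid exporter, was at 28.6, 35.1 and 28.6 CPM and 47.6, 52 and 58.9 CPM, a log2 fold change of 0.78 ± 0.12 (SE; adjusted p = 0.00014). Without butyrate + IL-13 replicate 3 a further 2 genes of this list were called lower, and under 6 alternatives the number lower was above 0.

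Genes of lipid metabolism rose in part. For cholesterol synthesis and uptake 9 of 22 tested genes were called higher and none lower, and 5 were without butyrate + IL-13 replicate 3. Sc5d, an enzyme of the last steps of cholesterol synthesis, was at 159, 148 and 153 CPM with IL-13 and 232, 203 and 252 CPM with both agents, a log2 fold change of 0.58 ± 0.09 (SE; adjusted p = 0.00017). In fatty acid oxidation and ketone metabolism 10 of 24 tested genes were called higher and 3 lower, and 6 were higher without IL-13 replicate 3. Acot2, a mitochondrial thioesterase, was at 10.5, 13.1 and 15.7 CPM with IL-13 and 30.4, 31.8 and 23.8 CPM with both agents, a log2 fold change of 1.12 ± 0.16 (SE; adjusted p = 7.3e-05). Bdh1, which interconverts the ketone bodies, was at 316, 362 and 343 CPM and 454, 499 and 539.6 CPM, a log2 fold change of 0.55 ± 0.09 (SE; adjusted p = 0.00036). Angptl4, an inhibitor of lipoprotein lipase, changed by -0.74 ± 0.16 (adjusted p = 0.0026) on the log2 scale.

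Among stress genes, Atf4 and several of its known targets were called higher. In the unfolded protein response list 8 of 20 tested genes were called higher, 1 lower and 11 neither, with a median log2 fold change of 0.1. None was called lower without any 1 of IL-13 replicates 1, 2 and 3 or butyrate + IL-13 replicates 1 and 2. Trib3, a pseudokinase target of Atf4, was at 288, 257 and 249 CPM with IL-13 and 516, 549 and 391 CPM with both agents, a log2 fold change of 0.88 ± 0.12 (SE; adjusted p = 6.5e-05). Ddit3, which encodes the factor CHOP, was at 155, 188 and 169 CPM and 272, 283 and 279.5 CPM, a log2 fold change of 0.70 ± 0.10 (SE; adjusted p = 9.4e-05). Atf4 itself and Chac1, a glutathione-degrading target, changed by 0.51 ± 0.07 (adjusted p = 0.00012) and 0.72 ± 0.11 (adjusted p = 0.00017) on the log2 scale. In the p53 response list 4 of 20 tested genes were called higher and 1 lower, together near the share over all genes, with a median log2 fold change of 0.06. The number lower was 0 when any untreated library, any IL-13 library, butyrate replicate 1, or replicate 1 or 3 with both agents was left out, and 2 without replicate 2 of either butyrate group or butyrate replicate 3. Gadd45a, a DNA damage and stress gene, rose and was at 254, 266 and 233 CPM with IL-13 and 422, 413 and 407 CPM with both agents, a log2 fold change of 0.72 ± 0.09 (SE; adjusted p = 2e-05).

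Junction and ion transport genes changed individually. Of 17 claudin and junction genes, 6 were called higher and 2 lower, and 1 was lower without IL-13 replicate 2 or 3, butyrate + IL-13 replicate 2 or 3, or both Lars2-high libraries. Cldn2, a leaky claudin of crypts, fell from 309.7, 366 and 387 CPM to 204, 164 and 128 CPM, a log2 fold change of -1.10 ± 0.12 (SE; adjusted p = 8.5e-06). Cdh1, E-cadherin, rose by 0.39 ± 0.07 (adjusted p = 0.0011) on the log2 scale. In the ion transport list 8 of 25 genes were called higher and 4 lower. Aqp1, a water channel, was at 29.8, 28.3 and 41.2 CPM with IL-13 and 11, 9.56 and 8.12 CPM with both agents, a log2 fold change of -1.79 ± 0.14 (SE; adjusted p = 2.3e-07). Slc26a6, an apical anion exchanger, was at 131, 129.6 and 124 CPM and 196, 204 and 216 CPM, a log2 fold change of 0.68 ± 0.09 (SE; adjusted p = 6.4e-05). Among EGF family genes, 5 of 13 were called higher and 2 lower. The number lower was 0 without butyrate + IL-13 replicate 3 and 1 without butyrate + IL-13 replicate 1 or 2, IL-13 replicate 3 or both Lars2-high libraries. Lrig1, a brake on EGF receptors, changed by -0.38 ± 0.09 (adjusted p = 0.0055) on the log2 scale. Ereg, the ligand epiregulin, went from 77.2, 69.5 and 85.9 CPM to 159, 119.6 and 138 CPM, a log2 fold change of 0.84 ± 0.16 (SE; adjusted p = 0.0011).

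Hdac3, a histone deacetylase, was at 49.4, 48.3 and 50.1 CPM with IL-13 and 47.9, 48.4 and 53.2 CPM with both agents, a log2 fold change of 0.02 ± 0.09 (SE; adjusted p = 0.92). Of 15 tested deacetylase and corepressor genes 3 were called lower and none higher, a share near the 21.2% called over all genes. The number lower was 1 without butyrate + IL-13 replicate 3, without replicate 1 or 2 of IL-13, without both Lars2-high libraries and with only the compared groups in the fit. Hdac6, a mostly cytoplasmic deacetylase, was at 5.62, 6.66 and 6.67 CPM with IL-13 and 3.16, 4.22 and 2.34 CPM with both agents, a log2 fold change of -0.97 ± 0.21 (SE; adjusted p = 0.0029). In the list of short-chain fatty acid transport and sensing 3 of 11 tested genes were called higher and 2 lower. The receptors Ffar2 and Ffar3, which sense these fatty acids, were the 2 that fell. Both are also members of the tuft cell list, so their falls are not separate from that result. Ffar2 was at 8.36, 6.52 and 6.33 CPM with IL-13 and 3.64, 1.20 and 0.731 CPM with both agents, a log2 fold change of -1.94 ± 0.36 (SE; adjusted p = 0.001), and without butyrate + IL-13 replicate 1 its log2 fold change was -2.86. Ffar3 was at 1.30, 0.824 and 1.43 CPM and 0.237, 0.239 and 0.0731 CPM, a log2 fold change of -2.67 ± 0.58 (SE; adjusted p = 0.0032). Slc16a1, the monocarboxylate transporter that carries butyrate, was at 434, 399.6 and 454 CPM and 568, 521 and 457 CPM, a log2 fold change of 0.26 ± 0.10 (SE; adjusted p = 0.076). It was called higher under 6 alternatives, among them DESeq2 (adjusted p = 0.041) and without butyrate + IL-13 replicate 3 (adjusted p = 0.036). Slc16a3, a related transporter that exports lactate, rose from 294, 328 and 343 CPM to 429.7, 529 and 544 CPM, a log2 fold change of 0.64 ± 0.12 (SE; adjusted p = 0.0015). Bsg, the chaperone of these transporters, changed by 0.35 ± 0.09 (adjusted p = 0.0077) on the log2 scale.

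Outside the lists, the genes with the largest or firmest changes were of many kinds. Among those that rose, Azin2, an antizyme inhibitor that raises polyamine synthesis, was at 3.46, 2.88 and 3.13 CPM with IL-13 and 12.3, 16.5 and 21.9 CPM with both agents, a log2 fold change of 2.42 ± 0.27 (SE; adjusted p = 8.1e-06). Cyp2d22, a cytochrome P450, was at 10.1, 9.68 and 10.2 CPM and 34.2, 38.8 and 45.5 CPM, a log2 fold change of 1.98 ± 0.15 (SE; adjusted p = 1.7e-07). Abat, the enzyme that degrades GABA, went from 15.9, 17.1 and 12.8 CPM to 50.1, 47.2 and 54.1 CPM, a log2 fold change of 1.73 ± 0.13 (SE; adjusted p = 1.8e-07). Acsf2, an acyl-CoA synthetase, Ggt1, a glutathione-cleaving enzyme, and Kcnh2, a potassium channel, changed by 1.32 ± 0.10 (adjusted p = 1.8e-07), 1.52 ± 0.12 (adjusted p = 1.9e-07) and 1.66 ± 0.13 (adjusted p = 2.1e-07) on the log2 scale. In all of these the groups were apart. For Azin2, Cyp2d22 and Abat, which are among the largest rises, that separation was a condition of the choice.

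Zcchc24, a zinc finger protein with few counts, rose from 0.216, 0.893 and 0.681 CPM to 5.38, 6.29 and 7.61 CPM, a log2 fold change of 3.40 ± 0.33 (SE; adjusted p = 1.9e-06). Aldh1a3, which makes retinoic acid, was at 7.35, 4.94 and 8.64 CPM with IL-13 and 28.8, 21.2 and 21.9 CPM with both agents, a log2 fold change of 1.78 ± 0.19 (SE; adjusted p = 6.4e-06). Khdc1a, a KH domain protein, varied more among the libraries with both agents, at 23.8, 42.3 and 64.6 CPM against 12.3, 8.79 and 9.46 CPM with IL-13, a log2 fold change of 2.10 ± 0.28 (SE; adjusted p = 5.9e-05). Lgals1, the glycan-binding galectin-1, and G0s2, an inhibitor of triglyceride breakdown, changed by 1.98 ± 0.30 (adjusted p = 0.00014) and 1.87 ± 0.32 (adjusted p = 0.00043) on the log2 scale, both from under 3 CPM. Fkbp5, a cochaperone of the glucocorticoid receptor, went from 22.8, 21.1 and 26.8 CPM to 59.1, 85.9 and 64 CPM, a log2 fold change of 1.56 ± 0.14 (SE; adjusted p = 9.3e-07). Slfn5, a Schlafen protein known to respond to interferon, was at 8.36, 11.6 and 10.2 CPM and 28.9, 32.6 and 31.7 CPM, a log2 fold change of 1.62 ± 0.13 (SE; adjusted p = 3e-07).

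Among the genes outside the lists that fell, Prelp, a leucine-rich matrix proteoglycan, was at 14.9, 29.4 and 37.4 CPM with IL-13 and 3.80, 3.11 and 0.878 CPM with both agents, a log2 fold change of -3.41 ± 0.35 (SE; adjusted p = 4.4e-06). Nrep, a small protein first studied in regenerating nerve, went from 18.5, 11.5 and 10.1 CPM to 0.87, 1.59 and 0.219 CPM, a log2 fold change of -3.91 ± 0.48 (SE; adjusted p = 2.3e-05). Without butyrate + IL-13 replicate 2 its log2 fold change was -4.62. Lbh, a transcription cofactor linked to Wnt signalling, was at 136, 121 and 133 CPM and 42.4, 33 and 44.7 CPM, a log2 fold change of -1.70 ± 0.11 (SE; adjusted p = 2.2e-08). Sh2d7, an adaptor protein outside the tuft cell list that is known from tuft cells, was at 13.8, 15.5 and 16.2 CPM and 2.53, 2.95 and 1.32 CPM, a log2 fold change of -2.75 ± 0.32 (SE; adjusted p = 1.4e-05). Syt13, a synaptotagmin of endocrine progenitors, was at 8.80, 10.1 and 7.55 CPM with IL-13 and 1.34, 1.03 and 0.805 CPM with both agents, a log2 fold change of -3.05 ± 0.23 (SE; adjusted p = 1.7e-07). Tpbg, the trophoblast glycoprotein, went from 11.8, 8.93 and 8.17 CPM to 1.26, 0.956 and 1.24 CPM, a log2 fold change of -3.05 ± 0.35 (SE; adjusted p = 9.7e-06). Lmx1a, a transcription factor of serotonin-producing enterochromaffin cells, was at 11.9, 12.8 and 11.6 CPM with IL-13 and 2.85, 0.717 and 1.98 CPM with both agents, a log2 fold change of -2.71 ± 0.27 (SE; adjusted p = 2.9e-06). For Sstr1, a somatostatin receptor, the log2 fold change was -2.90 ± 0.41 (adjusted p = 7.8e-05), and without butyrate + IL-13 replicate 2 it was -4.06. Krt4, a keratin, and Amigo2, a cell adhesion protein, changed by -2.81 ± 0.26 (adjusted p = 1.1e-06) and -3.16 ± 0.22 (adjusted p = 7.2e-08) on the log2 scale.

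Fewer genes were called for butyrate in enteroids without IL-13. Of the 13750 genes, 1086 (7.9%) were called between the butyrate and the untreated libraries, 707 higher and 379 lower; 607, 559 and 624 were called without untreated replicate 2, untreated replicate 3 and butyrate replicate 1. These libraries share none with the comparison above, though all 12 entered 1 fit. Of the genes called without IL-13, 71.2% were also called in the same direction with it, and those 773 genes were 26.5% of the genes called with IL-13. A further 6 genes were called in opposite directions. Whether a gene is called in 1 setting and not in the other does not show a difference, so the difference of the log2 fold changes was tested for each gene. It was called for 119 genes (0.865%), and in 98 of them the change was further from 0 with IL-13. The number was 276 with DESeq2. Leaving out libraries in turn gave between 55 (without untreated replicate 2) and 213 (without butyrate replicate 3). Further values past 1.5 times the main one were 76 without untreated replicate 1, 69 without untreated replicate 3, 56 without butyrate replicate 1, 68, 64 and 70 without IL-13 replicates 1, 2 and 3, and 182 and 70 without butyrate + IL-13 replicates 1 and 3.

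Tgfbi (chr13:56609603-56639339), a secreted matrix protein induced by TGF-beta, showed the firmest difference of the genes named here. It was at 48.7, 51.1 and 47.9 CPM in untreated enteroids and 41.1, 42.8 and 46.8 CPM with butyrate, but at 536, 485 and 547 CPM with IL-13 and 1111, 1056 and 999 CPM with both agents. Its log2 fold change with butyrate was -0.18 without IL-13 and 1.01 with it, a difference of 1.19 ± 0.11 (SE; adjusted p = 6.4e-05). Several secretory lineage genes fell more under IL-13. For Agr2, 159.7, 148 and 123 CPM with butyrate against 137, 170.0 and 195 CPM in untreated enteroids gave a log2 fold change of -0.22, and the difference from the -2.25 seen with IL-13 was -2.03 ± 0.24 (SE; adjusted p = 0.00051). For Rep15 the log2 fold changes were -0.32 without and -2.44 with IL-13 (adjusted p = 0.00065 for the difference), for Wnt3 -0.25 and -2.22 (adjusted p = 0.0043), and for Spdef -0.65 and -2.16 (adjusted p = 0.0049). Mcm2 and Slc12a2 were at -0.34 and -0.06 without IL-13 against -1.40 and -1.23 with it (adjusted p = 0.0059 and 0.0056 for the differences). Rgs4, a regulator of G protein signalling, was at 2.90, 4.09 and 3.05 CPM untreated, 2.27, 3.90 and 2.83 CPM with butyrate, 5.98, 3.78 and 5.65 CPM with IL-13 and 1.11, 0.319 and 0.951 CPM with both agents, a difference of -2.50 ± 0.47 (SE; adjusted p = 0.014).

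Cacna2d1, a calcium channel subunit, was at 4.04, 4.29 and 4.77 CPM untreated and 2.90, 3.07 and 2.04 CPM with butyrate, and at 3.96, 5.01 and 6.74 CPM with IL-13 and 0.791, 0.159 and 0.512 CPM with both agents, a difference of -2.71 ± 0.47 (SE; adjusted p = 0.0089). Clca3b, a relative of Clca1, was at 184, 182 and 186 CPM untreated, 93.7, 92.4 and 80.9 CPM with butyrate, 20.8, 21.7 and 31.5 CPM with IL-13 and 7.12, 5.18 and 5.71 CPM with both agents. It thus fell with butyrate in both settings, by a log2 fold change of -1.05 without IL-13 and -2.04 with it (adjusted p = 0.021 for the difference, which was lost under 7 of 19 alternatives).

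Of the 119 called differences, 84 were negative and 35, that of Tgfbi among them, were positive. Further positive ones follow. Plekhd1, a pleckstrin homology domain protein, was at 7.23, 4.94 and 6.10 CPM untreated and 3.95, 3.43 and 4.02 CPM with butyrate, and at 3.32, 2.40 and 4.83 CPM with IL-13 and 5.38, 7.57 and 8.12 CPM with both agents, a difference of 1.67 ± 0.34 (SE; adjusted p = 0.021), lost under 8 of 19 alternatives. Krt84, a hair keratin, was at 10.5, 9.89 and 12.7 CPM with IL-13 and 27.1, 33.9 and 32.7 CPM with both agents, and under 2 CPM in the 6 libraries without IL-13 (adjusted p = 0.019 for the difference, lost under 6 of 19 alternatives). Capn13, a calpain protease, fell without IL-13, from 3.53, 3.69 and 3.77 CPM to 1.45, 1.77 and 2.27 CPM, whereas it was at 122, 121 and 109 CPM with IL-13 and 134, 145 and 124 CPM with both agents, a difference of 1.23 ± 0.19 (SE; adjusted p = 0.0048). Muc3a, a membrane mucin, changed by -0.70 without IL-13 and by 0.47 with it (adjusted p = 0.0089 for the difference). The rise with IL-13 was itself lost in 4 settings, among them without IL-13 replicate 2 (adjusted p = 0.11). None of the 32 tuft cell genes or the 33 interferon response genes tested was called for a difference between the settings by the main edgeR test. In that test 8 and 3 of them had an unadjusted p under 0.05, beside 1490 of all 13750 genes. The 2 lists were not alike in this. The median difference was -0.78 for tuft cell genes and -0.12 for interferon response genes, against -0.023 over all genes. DESeq2 called 3 and 0 of the 2 lists. Leaving out untreated replicate 2 gave 2.0 of the interferon response genes. Isg15 changed by 2.28 without IL-13 and 1.98 with it (adjusted p = 0.91 for the difference), and Dclk1 by -1.22 and -2.18 (adjusted p = 0.38). These p-values do not show that the responses were equal. Under some alternatives edgeR did call tuft cell genes for a difference, among them Dclk1 without butyrate replicate 3 (adjusted p = 0.013).

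**Figure D4:**
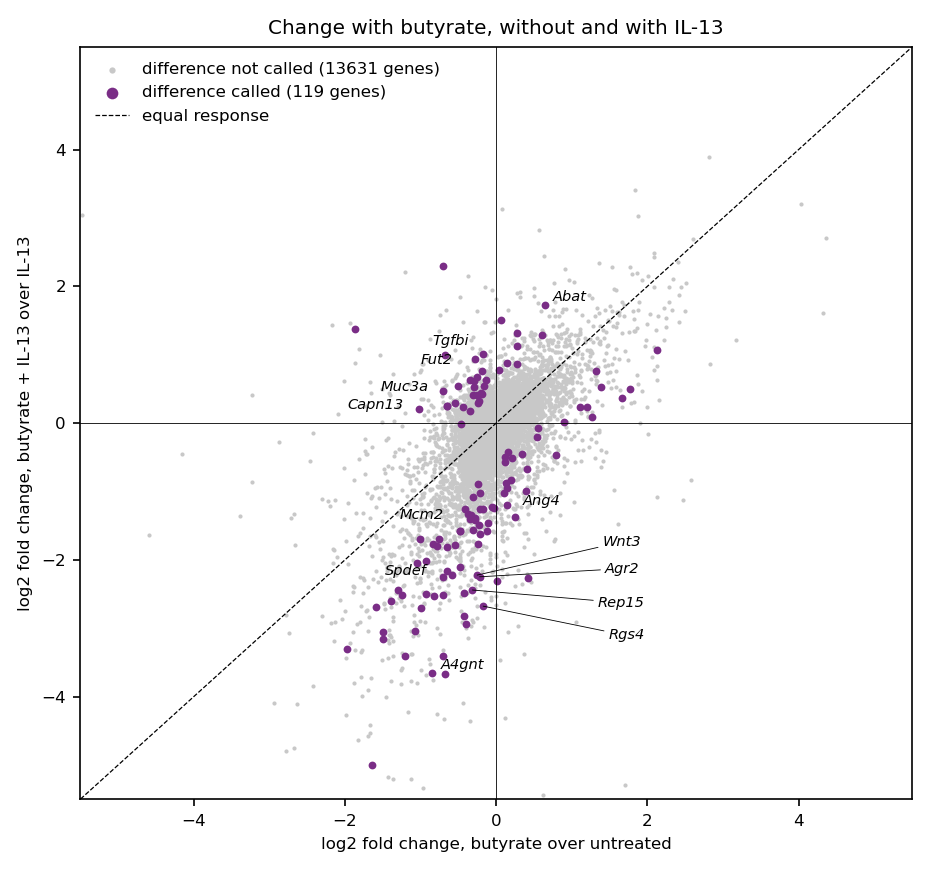
Log2 fold change of butyrate + IL-13 over IL-13 (vertical axis) against that of butyrate over untreated (horizontal axis) for the genes tested, with the 119 genes called for a difference in purple and the line of equal response dashed; 4 genes lie outside the axes. Agr2, Rep15 and Wnt3 lie far below the line, Tgfbi, Capn13 and Muc3a above it.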

How the data were processed

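The authors deposited a table of raw read counts per gene for the 12 libraries. RNA was isolated with a column kit and sequenced as directional polyA libraries, per the labels' protocols, and mm10 is the build named in the submitters' processing notes. The sources used here do not give the aligner, the counting program or the strand setting. Rows were matched by gene ID to GENCODE vM21 (98.4% of 18092 rows) and 23 genes with several rows were summed. The test was that of edgeR 4.0.16, run in R 4.3.3 (TMM scaling, filterByExpr, robust quasi-likelihood fit) with all 4 groups in 1 fit. The contrasts were butyrate + IL-13 over IL-13, butyrate over untreated, and their difference (the interaction). The fit left 8 residual degrees of freedom and gave a biological coefficient of variation of 10.2%. SE is the log2 fold change divided by the root of its F statistic. CPM of a single gene is the count over the library's total of tested genes, scaled by its TMM factor. Summed CPM of gene lists are counts over the library's plain total. Totals over all 12 libraries ranged from 13867982 to 24294456 counts.

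On simulated data for the butyrate + IL-13 over IL-13 contrast (13573 genes), 55.2% of genes changed 1.5-fold, 86.6% of those changed 2-fold and 97% of those changed 4-fold were recovered, and 10 unchanged genes were called. The simulation changed few genes and gave every library the same spread per gene, unlike the real libraries. Its shares may therefore not hold for the real comparison. Replicates with the same number showed little shared deviation, so the main fit has no block. Correlations of deviations ran from -0.024 to 0.064 between IL-13 and butyrate + IL-13 libraries and from -0.059 to 0.097 between untreated and butyrate libraries. Replicate pairs differed by more than sampling noise. Their chi-square over its degrees of freedom ranged from 4.6 to 7.43 for IL-13 pairs and from 10.47 to 19.87 for butyrate + IL-13 pairs. The genes and the 40 gene lists were chosen with earlier results of these data known. Named genes are, in each direction, the 15 called genes with the largest change (mean of at least 50 counts, groups apart), the 10 with the smallest adjusted p and up to 8 with the largest called interaction, then the 5 members of each list with the smallest adjusted p and a set of markers; some genes are not reported here. DESeq2 1.42.0, RLE scaling, other filters, the 2 compared groups alone, a replicate block, thinned libraries and leaving out libraries were tried as alternatives.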

Additional observations from a re-analysis of the deposited data

Results flagged for a closer look

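For 39 genes named here the response to butyrate differed between enteroids with and without IL-13 by the test of the difference itself (edgeR's quasi-likelihood test of the interaction, adjusted p under 0.05 over all genes tested). Each value below is the log2 fold change with IL-13 minus that without. Secretory regulators and products had negative differences: Agr2 -2.03, Rep15 -2.13, Spdef -1.51, Atoh1 -1.15, A4gnt -2.81, Ang4 -1.34, Wnt3 -1.97, Mptx1 -1.96 and Reg4 -1.27. Among enteroendocrine genes the values were -1.10 for Chga, -1.13 for Chgb and -1.27 for Cplx2, and Syt13, outside that list, had -1.55. Without IL-13, 25 of the 28 tested genes of the enteroendocrine list were also called lower with butyrate, and 3 of the 28 were called for a difference. Crypt and replication genes were also negative, with -1.34 for Olfm4, -1.17 for Slc12a2, -1.06 for Mcm2, -1.01 for Mcm3, -0.96 for Mcm5 and -0.85 for Mcm6. Further negative differences were -2.71 for Cacna2d1, -1.71 for Lmx1a, -0.99 for Clca3b, -2.50 for Rgs4, -2.21 for Prelp, -1.66 for Amigo2, -1.61 for Ccl6, -1.09 for Pla2g4a, -1.01 for Aqp1, -0.94 for Lbh and -0.68 for S100g. Positive differences were 1.67 for Plekhd1, 1.44 for Krt84, 1.19 for Tgfbi, 1.23 for Capn13, 1.21 for Fut2, 1.17 for Muc3a, 1.09 for Abat, 0.85 for Fgf15 and 0.67 for Duox2.

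Of these 39 differences, 18 were called under all 19 alternatives, among them those of Tgfbi, Agr2, Rep15, Wnt3, Spdef, Atoh1, Mcm2, Slc12a2, Muc3a and Capn13. The other 21 were lost under at least 1. Prelp was lost under 14 of the 19, Olfm4, Mcm5 and Pla2g4a under 12, Mcm6 under 11 and Mcm3 under 6. Of the enteroendocrine genes, Chgb was lost under 8, Cplx2 under 7 and Chga under 2. With 3 libraries per group no sample was tested for standing apart within its group.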

How the results depend on the processing

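Of 20 alternatives, leaving out butyrate + IL-13 replicate 3 was the 1 that moved the count of genes called between butyrate + IL-13 and IL-13 by more than 1.5 times. Leaving out 1 library at a time gave 1935 to 3451 calls, against 2912. For butyrate over untreated the range was 559 to 1395, against 1086. The counts without untreated replicates 2 and 3 and butyrate replicate 1 were 607, 559 and 624. For the interaction the range was 55 to 213, against 119, and DESeq2 called 276. The other settings stayed within 1.5 times. With the replicate number as a block, 2757, 978 and 114 genes were called in the 3 comparisons. Same-numbered libraries showed little shared deviation. With 3 libraries per group this cannot tell whether they share a mouse, culture or batch. Of the 154 genes named in the text, 137 were called with butyrate + IL-13 over IL-13, and 128 of these were called under every alternative that tested them, the exceptions being Cd14, Cdkn2c, Epcam, Erbb3, Gsdmc4, Krt18, Lrig1, Lyz1 and Muc3a. No named gene reversed its direction under any alternative in which it was called. RLE scaling moved the median log2 fold change of all genes from -0.012 to 0.012 and the share of called genes that were higher from 46.5% to 51.8%. Precision was lower at few counts: the SE of the log2 fold change was 0.44 for Lgr5 and 0.37 for Il17rb, against 0.07 for Stat6.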

Other observations

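Further lists are given here beside the 21.2% of all tested genes that were called. Of 17 tested genes of the regenerative, fetal-like epithelium, 3 were called higher and 3 lower. Clu, a secreted chaperone of injury-responsive cells, was at 45.4, 37.4 and 35.1 CPM with IL-13 and 11.7, 15.1 and 18.8 CPM with both agents, a log2 fold change of -1.36 ± 0.14 (SE; adjusted p = 3.5e-06). Anxa8, an annexin, was at 16.9, 12.6 and 12.1 CPM and 3.95, 4.86 and 3.88 CPM, a log2 fold change of -1.71 ± 0.19 (SE; adjusted p = 6.5e-06). Of 13 tested antimicrobial and acute phase genes, 3 were called higher and 1 lower. The number higher was 1 without replicate 2 of either group, and the number lower was 2 without IL-13 replicate 1. Lypd8, which keeps flagellated bacteria off the epithelium, rose from 507, 549 and 554 CPM to 814, 892 and 1006 CPM, a log2 fold change of 0.75 ± 0.11 (SE; adjusted p = 0.00016). Reg4, a lectin of secretory cells, fell from 454, 407 and 346 CPM to 195, 143 and 91.1 CPM, a log2 fold change of -1.50 ± 0.18 (SE; adjusted p = 1.9e-05).

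Among 20 tested gasdermin and cell death genes, 6 were called higher and 5 lower, and 3 were lower without IL-13 replicate 1 or butyrate + IL-13 replicate 3. Gsdmd, the gasdermin cut in pyroptosis, was at 254, 245 and 234 CPM with IL-13 and 297, 338 and 359 CPM with both agents, a log2 fold change of 0.44 ± 0.09 (SE; adjusted p = 0.0013). Casp8, an initiator caspase, changed by 0.38 ± 0.07 (adjusted p = 0.001) on the log2 scale. Of 19 tested chemokine and cytokine genes, 4 were called higher and 2 lower. The number higher was 1 without replicate 1 of the IL-13 group and 2 without replicate 3 of either group. Ccl6, a chemokine, was at 26.8, 18.1 and 16.8 CPM with IL-13 and 8.62, 7.09 and 8.12 CPM with both agents, a log2 fold change of -1.37 ± 0.21 (SE; adjusted p = 0.00016). For the brush border 3 of 16 genes were called higher and 1 lower, a share near that over all genes. The number higher was 6 with RLE scaling or only the compared groups, 8 with DESeq2, 6 without butyrate replicate 2 or 3 and 7 without butyrate + IL-13 replicate 1. Eps8, an actin regulator of microvilli, changed by 0.47 ± 0.09 (adjusted p = 0.0015) on the log2 scale. Of 18 histone genes 1 was called, lower, a share below that over all genes, and none was called when replicate 3 of either group, IL-13 replicate 2 or butyrate + IL-13 replicate 1 was left out. Of 14 villus tip genes 4 were called higher, and 7 without butyrate + IL-13 replicate 1. Nt5e, the ecto-enzyme that makes adenosine at the villus tip, changed by 0.50 ± 0.11 (adjusted p = 0.0035) on the log2 scale.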
